A study of Mus musculus with 32 samples.

Results

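The genes described here are 9 components of the mouse PIWI-interacting RNA (piRNA) pathway: Mael, Piwil2, Asz1, Stk31, Ddx4, Tdrd1, Tdrd9, Tdrkh and Mov10l1. Each was taken from the array annotation by its symbol, and where a gene had several probe sets the one with the highest mean over all arrays was used. All 9 were measured, among 18193 genes in all. Tests were run on genes with a mean at or above log2 4.05, the 40th percentile of all probe set values, in 1 or more groups, which left 8 of the 9 and 15497 genes in all. Tdrd1 did not pass, and its levels are given without a test.

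piRNAs are short RNAs bound by PIWI proteins, and in mammals they guide the silencing of transposons in the germ line. Precursor transcripts are unwound and cut, the fragments are loaded into PIWI proteins in granules near mitochondria, and Tudor domain proteins hold the machinery together by binding methylated arginines of PIWI proteins. Most of these genes are needed for sperm formation in mice, and several have promoters rich in CpG that are methylated outside the germ line. Piwil2 (Entrez gene 57746) codes for the PIWI protein MILI. Mov10l1 (83456) codes for the RNA helicase that acts on precursors, and Asz1 (74068), also called Gasz, for a scaffold on the mitochondrial surface. Tdrkh (72634) and Tdrd1 (83561) code for Tudor domain partners of PIWI proteins, and Tdrd9 (74691) for a Tudor domain helicase. Ddx4 (13206), also called mouse vasa homologue, is a helicase of germ granules, Mael (98558) codes for maelstrom, needed for transposon silencing in the male germ line, and Stk31 (77485) for a Tudor domain kinase found with MIWI.

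The study measured gene expression on mouse Affymetrix arrays in cells on the way to primordial germ cells (PGCs), from which sperm and eggs descend. PGC-like cells (PGCLCs) were induced in culture by transcription factors or by cytokines. They start from epiblast-like cells (EpiLCs), a product of embryonic stem cells (ESCs), and the comparisons ask how the products of the 2 routes differ from each other and from their starting cells. There were 16 groups of 2 arrays, called biological duplicates in the design text. Separate cultures are named in no label, and p-values therefore reflect array spread that could be technical.

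Of the 22 new arrays, all come from male cells of a mixed C57BL/6 and 129 background that carry the reporters Blimp1-mVenus and stella-ECFP and the doxycycline-dependent activator Rosa26-rtTA (the BVSCR26rtTA line). Factor-induced cells also carry piggyBac transgenes with a tetO promoter: Blimp1, Prdm14 and Tfap2c in BP14A cells (days 2 and 4), Blimp1 and Prdm14 in BP14 cells (day 2), Prdm14 and Tfap2c in P14A cells (day 2), and Prdm14 alone in P14 cells (day 2). These transgenes were switched on with doxycycline and no cytokine was named for them. Cytokine-induced cells (Ck-PGCLCs, days 2 and 4) came from the parental clone without factor transgenes and were given BMP4, BMP8A, SCF, LIF and EGF. The factors thus act in transfected derivatives of a single line, and the cytokine route in the line itself. BP14A ESCs were kept in 2i+LIF, and a further group of BP14A ESCs was given doxycycline for 2 days and sorted for stella-ECFP; no sort is named for the other new cells. The negative control was the parental clone with doxycycline at day 2 (Parental +Dox cells), and EpiLCs of the parental clone were taken at 36 h. The other 10 arrays are from an earlier series in a C57BL/6 background: Ck-PGCLCs of day 6, PGCs of embryonic day (E) 9.5 with a stella-EGFP reporter, EpiLCs of 48 h, epiblast of E5.5, and ESCs in 2i+LIF. The cultured earlier cells are male and carry both fluorescent reporters, while the sex of the epiblast and PGC samples is unknown. No test crosses from new to earlier arrays, where series and group cannot be told apart. Orders, spans and correlations over all 16 groups do mix new and earlier arrays, and are descriptions only.

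Arrays of 1 group correlated at r = 0.97 to 0.99 over all genes tested, and 0 pairs were identical. A measure of RNA integrity, the Gapdh 5′ minus 3′ probe set level, ran from -4.66 to -0.07 and was lowest on BP14A day 4 array 1 (-4.66) and BP14 day 2 array 1 (-4.07). The same measure for beta-actin did not mark these arrays as low. It was -2.28 on BP14A day 4 array 1, against -2.96 on array 2, and -2.30 on BP14 day 2 array 1, against -3.52 on array 2. Whether these arrays hold poorer RNA is thus unsettled. The 7 measured germ cell markers were Prdm1 (Blimp1), Prdm14, Tfap2c, Dppa3 (stella), Dnd1, Kit and Itgb3. Prdm1, Prdm14 and Tfap2c are also the transgenes of BP14A cells, and stella is the gene of the sorted reporter. In such cells the marker level is therefore not independent of the induction or the sort. The mean marker level per array was 9.91 to 9.99 in BP14A cells of day 2 and 10.3 to 10.4 in BP14A cells of day 4. It was 10.8 to 10.9 in Ck-PGCLCs of day 4, against 5.19 to 5.25 in EpiLCs of 36 h. In PGCs of E9.5 it was 11.1 to 11.4, and in the same arrays the mean of 6 blood and endothelium markers was 8.88 to 9.30, against 3.56 to 6.37 in the other groups.

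For the members whose expression moved together, and for the ones that did not, the promoter windows show what the genes share in sequence. RefSeq promoter windows of build GRCm38.p6, running from 250 bases before to 50 bases after each start, were found for 8 of the 9 members (not for Piwil2). The letters CACGTG, an E-box which reads the same on both strands, were searched in each and are in capitals where found. The windows shown are those of Mael (chr1:166238695-166238994, minus strand), Stk31 (chr6:49395289-49395588, plus strand), Ddx4 (chr13:112652261-112652560, minus strand), Tdrkh (chr3:94412994-94413293, plus strand) and Asz1 (chr6:18109012-18109311, minus strand). Each window spans the annotated start, so its last part lies in the transcript.
Mael: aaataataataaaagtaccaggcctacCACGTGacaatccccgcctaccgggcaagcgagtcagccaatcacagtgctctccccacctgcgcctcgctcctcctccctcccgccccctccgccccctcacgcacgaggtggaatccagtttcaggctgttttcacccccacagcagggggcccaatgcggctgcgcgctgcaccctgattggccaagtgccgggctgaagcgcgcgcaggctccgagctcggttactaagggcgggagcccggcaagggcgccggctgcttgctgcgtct
Stk31: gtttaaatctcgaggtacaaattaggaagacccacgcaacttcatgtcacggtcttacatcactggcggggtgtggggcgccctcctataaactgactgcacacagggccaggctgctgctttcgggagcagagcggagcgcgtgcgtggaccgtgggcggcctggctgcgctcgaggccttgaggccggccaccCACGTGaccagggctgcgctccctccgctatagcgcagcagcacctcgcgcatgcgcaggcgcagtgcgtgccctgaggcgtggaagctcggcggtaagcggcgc
Ddx4: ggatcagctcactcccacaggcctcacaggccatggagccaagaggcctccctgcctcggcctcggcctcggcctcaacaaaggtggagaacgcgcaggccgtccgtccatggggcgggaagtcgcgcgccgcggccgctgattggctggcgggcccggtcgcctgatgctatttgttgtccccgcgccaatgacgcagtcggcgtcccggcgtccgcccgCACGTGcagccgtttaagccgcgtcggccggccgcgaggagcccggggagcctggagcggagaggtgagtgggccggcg
Tdrkh: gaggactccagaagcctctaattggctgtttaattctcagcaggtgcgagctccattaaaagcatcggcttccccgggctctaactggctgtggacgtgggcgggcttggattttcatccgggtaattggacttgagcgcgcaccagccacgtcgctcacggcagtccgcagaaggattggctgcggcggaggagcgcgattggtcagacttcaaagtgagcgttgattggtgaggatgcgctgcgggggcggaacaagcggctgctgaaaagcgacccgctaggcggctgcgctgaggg
Asz1: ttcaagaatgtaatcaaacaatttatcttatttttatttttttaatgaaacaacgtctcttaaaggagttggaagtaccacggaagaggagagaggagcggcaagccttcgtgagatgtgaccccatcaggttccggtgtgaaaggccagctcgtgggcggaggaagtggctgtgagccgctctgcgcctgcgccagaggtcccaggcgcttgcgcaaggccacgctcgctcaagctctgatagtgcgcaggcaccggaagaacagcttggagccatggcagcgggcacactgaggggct

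Mael, Stk31 and Ddx4 were among the members with the largest differences below, and each window holds CACGTG once, with its first base at -223 from the start in Mael, at -55 in Stk31 and at -29 in Ddx4. Tdrkh and Asz1 hold none. In all, 6 of the 8 members with a window held CACGTG, the others being Tdrd1, Mov10l1 and Tdrd9, which holds it at 2 places. Of the list of 22 other piRNA pathway genes followed below, 15 had a window and 4 held it (26.67%). Fkbp6, which held it, and Nanos2, which did not, have a window but no expression value here. Of all 27025 genes with a window 8.09% held it, and of the 11280 genes with a window of 10 to 38 CpG dinucleotides, the range of the members' first windows, 11.57% did. The letters GCGGGA, searched on both strands, were in 2 of 8 members (Mael and Ddx4), against 22.05% of genes with any window and 39.81% of genes with a window in that CpG range. Holding CACGTG did not separate the members whose levels varied widely from those that varied little (below). Of the widely varying members with a window, Mael, Stk31 and Ddx4 hold it and Tdrkh does not. Of those that varied little, Tdrd9, Mov10l1 and Tdrd1, the last near the bottom of the scale, hold it and Asz1 does not. The counts describe these letters in these windows and say nothing of a factor bound there.

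Over the 16 groups the members split into 5 whose group means spanned more than 4 log2 units and 4 that spanned less than 2. Mael ranged from 3.28 in Parental +Dox cells to 9.38 in EpiLCs of 36 h. Its order began with EpiLCs of 36 h and 48 h, whose arrays overlapped, and ended with Ck-PGCLCs of day 2 and Parental +Dox cells, both below the 4.05 level, where the size of a difference is uncertain. Piwil2 had its lowest mean in Ck-PGCLCs of day 2 (4.75) and its highest in Ck-PGCLCs of day 6 (9.24). Stk31, also under 4.05 in these 2 groups, ran from 3.23 in Parental +Dox cells to 8.55 in BP14A cells of day 4, and Ddx4 from 5.78 in Parental +Dox cells to 9.83 in Ck-PGCLCs of day 6. Tdrkh had its lowest mean in BP14A ESCs (1.96) and its highest in Ck-PGCLCs of day 6 (8.08). Neighbours in these orders often did not differ beyond their arrays. Of 15 neighbouring group pairs, the arrays overlapped in 8 for Mael, 10 for Piwil2, 8 for Stk31, 9 for Ddx4 and 9 for Tdrkh. The widest gap between neighbours in Stk31 lay between ESCs of the earlier series and Ck-PGCLCs of day 2 (1.74). These spans and orders mix new and earlier arrays, so series and group cannot be told apart in them.

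EpiLCs of 36 h carried more Mael, Piwil2, Ddx4 and Tdrkh RNA than BP14A ESCs, the step before induction. Here and below a gene was called at an adjusted p under 0.05 in limma (Benjamini-Hochberg over 15497 genes) and a change of at least 2-fold. Whether arrays overlapped is given as a description only. With 2 arrays per group, unchanged genes can also fail to overlap, and the share of all genes that did so was not counted. In bulk RNA, fewer cells of a type and less RNA per cell cannot be told apart. Mael was at 9.46 and 9.29 in EpiLCs, against 5.68 and 5.78 in BP14A ESCs. The groups did not overlap, and the log2 difference was 3.65 (SE 0.34, adjusted p = 9.93e-08). Tdrkh was at 5.64 and 5.63 in EpiLCs, against 1.93 and 1.99 in ESCs, a log2 difference of 3.67 (SE 0.30) whose ESC side lay under the 4.05 level. Ddx4 differed by 1.37 (SE 0.21) and Piwil2 by 1.56 (SE 0.33), and in both every EpiLC array lay above every ESC array. In all, 4 of 8 tested members rose, against 7.17% of all genes called higher, and the members' median difference was 1.14, against 0.05 over all genes tested. Stk31 was not called (0.90, 95% interval 0.19 to 1.61), nor was Mov10l1, whose 1.77-fold difference missed the fold limit. Ddx4 was not called in a fit of these 4 arrays alone (adjusted p = 0.0546), and Piwil2 was not called with 5 arrays of low Gapdh 5′ level left out (1.39, adjusted p = 0.0886). EpiLCs and BP14A ESCs differ in clone as well as in state, so the part of either in these differences cannot be told apart.

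In the first 2 days of cytokine induction, 5 of 8 members fell, against 6.06% of all genes called lower, while germ cell markers rose in the same arrays. Mael stood at 3.49 and 3.43 in Ck-PGCLCs of day 2, against 9.46 and 9.29 in EpiLCs of 36 h. This was the largest change of any member in any comparison but 1 (that of Parental +Dox cells, below): the log2 difference was -5.92 (SE 0.34, adjusted p = 2.25e-10). Its day 2 side lay under the 4.05 level, where the size of a difference is uncertain. Stk31 was at 3.87 and 3.68 in Ck-PGCLCs, under that level as well, against 6.70 and 6.25 in EpiLCs (log2 difference -2.70, SE 0.34). Piwil2 was at 4.69 and 4.82 in Ck-PGCLCs, against 7.17 and 6.81 in EpiLCs (-2.23, SE 0.33). Ddx4 was at 6.29 and 6.24 in Ck-PGCLCs, against 8.30 and 7.83 in EpiLCs (-1.80, SE 0.21). For these 4 genes the arrays did not overlap and the calls held under every alternative tried. Tdrkh, at 4.69 and 4.44 in Ck-PGCLCs against 5.64 and 5.63 in EpiLCs, fell by 1.07 (SE 0.30, adjusted p = 0.0111), and this call was lost without EpiLC array 1 (adjusted p = 0.0542), without EpiLC array 2 (0.0521) and without day 2 array 2 (-0.94, adjusted p = 0.0962). Asz1, Tdrd9 and Mov10l1 were not called, with intervals of -0.85 to 0.86, -0.58 to 0.45 and -1.12 to -0.29. Of 7 germ cell markers 6 rose, against 8.42% of all genes called higher. The mean of 7 primitive streak and mesoderm markers was 9.11 to 9.33 in Ck-PGCLCs of day 2, against 3.44 to 3.58 in EpiLCs, with all 7 above the 4.05 level at day 2 and 3 of 7 in EpiLCs. The part of these cells in the result was not tested.

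Between days 2 and 4 of the cytokine route, 5 of 8 members rose again, against 5.68% of all genes called higher. Stk31 reached 6.45 and 6.82 at day 4, against 3.87 and 3.68 at day 2 (log2 difference 2.86, SE 0.34, adjusted p = 3.49e-06). Piwil2 reached 6.62 and 6.96, against 4.69 and 4.82 (2.04, SE 0.33), and Tdrkh 6.56 and 6.67, against 4.69 and 4.44 (2.05, SE 0.30). Ddx4 reached 8.05 and 7.89, against 6.29 and 6.24 (1.71, SE 0.21). Day 4 thus lay above day 2 in every array of these 4 genes. Mael rose by 1.28 (SE 0.34), to 5.0 and 4.48 at day 4 against 3.49 and 3.43 at day 2, and was not called without day 4 array 1 (1.02, adjusted p = 0.12) or without day 2 array 2 (1.25, adjusted p = 0.0563). Relative to EpiLCs of 36 h, Mael at day 4 was still lower by 4.64 on the log2 scale (SE 0.34), the 1 member called lower against 7.4% of all genes. Piwil2, Stk31 and Ddx4 differed from EpiLCs by -0.20, 0.16 and -0.09, with intervals of -0.89 to 0.49, -0.55 to 0.87 and -0.54 to 0.35. Tdrkh stood at a difference of 0.98 (SE 0.30, adjusted p = 0.0173), just under the fold limit. Over the same step the mean of the 7 streak and mesoderm markers was 4.62 to 4.77 at day 4, against 9.11 to 9.33 at day 2, with 6 of 7 called lower (median -4.27), and its part was not tested.

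Parental +Dox cells, for which no factor transgene and no cytokine is named, also had less Mael, Stk31, Ddx4 and Piwil2 RNA than the same 2 EpiLC arrays. Mael was at 3.28 and 3.29 in Parental +Dox cells, against 9.46 and 9.29 in EpiLCs (log2 difference -6.09, SE 0.34, adjusted p = 1.53e-10). Stk31 was at 3.56 and 2.90 in Parental +Dox cells, against 6.70 and 6.25 in EpiLCs (-3.24, SE 0.34). Ddx4 (-2.29, SE 0.21) and Piwil2 (-2.09, SE 0.33) were also lower. No label says whether Parental +Dox cells passed through the EpiLC step, so these are differences from EpiLCs and not a course in time. So 4 of 8 members were called lower, against 5.63% of all genes, and their arrays did not overlap those of EpiLCs. Tdrkh was at 5.14 and 5.63 and was not called (-0.25, interval -0.87 to 0.38). Ck-PGCLCs of day 2 set against Parental +Dox cells gave 0 of 8 called in limma, where 3.73% of all genes were called. At an unadjusted limma p under 0.05 there were 2 (Ddx4 and Tdrkh), a threshold at which the share of all genes was not counted. Intervals of Ck-PGCLCs minus Parental +Dox cells ran from -0.53 to 0.88 for Mael, from -0.83 to 0.55 for Piwil2 and from -0.17 to 1.25 for Stk31. The mean of the 7 streak markers in Parental +Dox cells was 7.54 to 7.74 and that of 6 endoderm markers 6.15 to 6.18, against 4.53 to 4.92 for endoderm in EpiLCs. Of the endoderm markers only 2 of 6 were called higher, where 1121 of all 15497 genes were. Their median difference was 0.31, with a range of -0.23 to 6.29, so the higher mean does not speak for the whole list. The part of streak or endoderm cells was not tested.

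**Figure D1:**
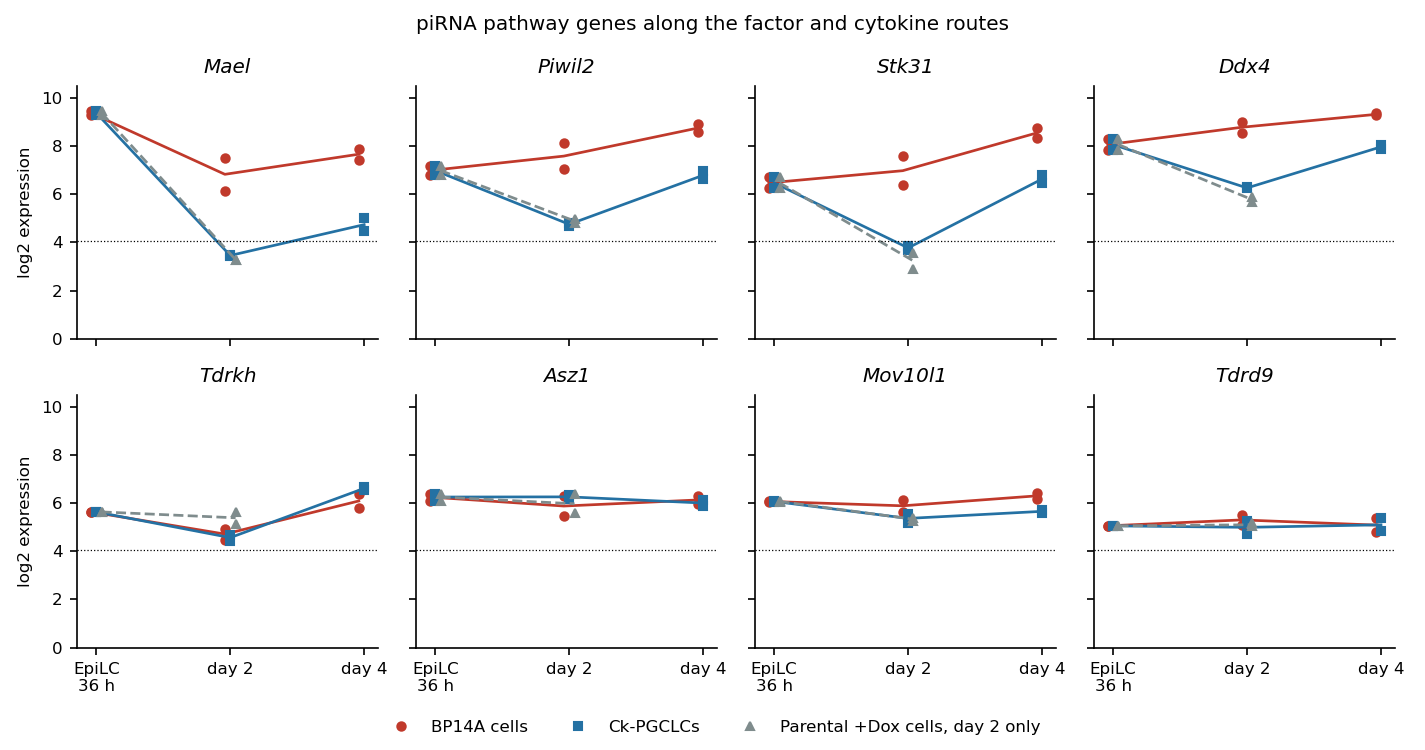
Log2 expression of the 8 tested members (vertical axis, quantile-normalized arrays) in EpiLCs of 36 h, at day 2 and at day 4 (horizontal axis), with a point for each array and lines through the means of 2 arrays for BP14A cells, Ck-PGCLCs and Parental +Dox cells, which share the EpiLC arrays; the dotted line is the 4.05 level. Mael, Piwil2, Stk31 and Ddx4 were low at day 2 in Ck-PGCLCs and Parental +Dox cells and higher in BP14A cells. No label says that Parental +Dox cells came from EpiLCs. The EpiLCs are of the parental clone and BP14A cells are a transfected derivative, so the BP14A line does not follow a single clone.

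With the 3 factors, Mael was the only member called lower than in EpiLCs at day 2, and Piwil2, Stk31 and Ddx4 had differences above 0. The EpiLCs are of the parental clone and BP14A cells are a transfected derivative, so clone and induction cannot be told apart here. Mael was at 7.52 and 6.14 in BP14A cells of day 2, against 9.46 and 9.29 in EpiLCs, a fall of 2.55 (SE 0.34, adjusted p = 1.53e-05). In a fit of these 4 arrays alone the adjusted p was 0.0506. It was 1 of 8 members called lower, against 5.36% of all genes. Piwil2, at 8.14 and 7.03 in BP14A cells against 7.17 and 6.81 in EpiLCs, and Stk31, at 7.58 and 6.39 against 6.70 and 6.25, were not called (0.60, interval -0.09 to 1.29, and 0.51, interval -0.20 to 1.21). Ddx4, at 9.01 and 8.56 in BP14A cells against 8.30 and 7.83 in EpiLCs, did not overlap and passed the adjusted p but not the fold limit (0.72, SE 0.21, adjusted p = 0.0195). The same held for Tdrkh on the lower side, at 4.94 and 4.48 in BP14A cells against 5.64 and 5.63 in EpiLCs (-0.92, SE 0.30, adjusted p = 0.0334). Without BP14A day 2 array 2, Piwil2 was called higher (1.16, adjusted p = 0.0299), as was Stk31 (1.10, adjusted p = 0.0391); without array 1, Tdrkh was called lower (-1.15, adjusted p = 0.0396). The 2 BP14A arrays of day 2 lay farther apart in these genes than those of any other group: the SD was 0.97 for Mael, 0.79 for Piwil2 and 0.84 for Stk31 (n = 2).

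By day 4 of the factor route, 3 of 8 members were higher than in EpiLCs, against 8.12% of all genes called higher. Again these EpiLCs are of the parental clone, so clone and induction cannot be told apart in the differences from EpiLCs. Stk31 was at 8.76 and 8.34 in BP14A cells of day 4, against 6.70 and 6.25 in EpiLCs (log2 difference 2.08, SE 0.34, adjusted p = 0.00013). Piwil2 was at 8.91 and 8.60, against 7.17 and 6.81 (1.77, SE 0.33), and Ddx4 at 9.36 and 9.28, against 8.30 and 7.83 (1.26, SE 0.21). Mael was at 7.90 and 7.43 and stayed below EpiLCs (-1.71, SE 0.34), the 1 member called lower against 5.9% of all genes. Tdrkh was not called (0.45, interval -0.17 to 1.08). From day 2 to day 4 in BP14A cells, Stk31 (1.57, SE 0.34) and Tdrkh (1.38, SE 0.30) rose, both with an adjusted p of 0.0194, against 0.936% of all genes called higher. Neither call was stable. Without BP14A day 2 array 2 the values were 0.97 (adjusted p = 0.263) for Stk31 and 1.15 (adjusted p = 0.188) for Tdrkh. Without day 4 array 1, which had the lowest Gapdh 5′ level (array 2 was also low, at -2.99), they were 1.36 (adjusted p = 0.19) and 1.07 (adjusted p = 0.244). Stk31 was also not called without day 4 array 2 (adjusted p = 0.0508), and without day 2 array 1 Mael (1.52) and Piwil2 (1.72) were called as well. The change from day 2 to day 4 was smaller in BP14A cells than in Ck-PGCLCs for Ddx4, by a difference of the 2 changes of -1.17 (SE 0.30, adjusted p = 0.0108; 4.92% of all genes called in this direction). For Stk31 the same test gave -1.29 (SE 0.48, adjusted p = 0.0797) and for Piwil2 -0.87 (SE 0.47, adjusted p = 0.252). Without BP14A day 2 array 1 the Ddx4 call was lost (-0.95, adjusted p = 0.0661), and without array 2 Stk31 (-1.89, adjusted p = 0.00899) and Piwil2 (-1.43, adjusted p = 0.0457) were called.

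At day 2, all 4 factor combinations had more Mael, Stk31, Ddx4 and Piwil2 RNA than Parental +Dox cells, the control without factor transgenes. In BP14A cells 4 of 8 members were called higher, against 6.63% of all genes, and the members' median difference was 1.63, against 0.05 over all genes tested. Stk31 was at 7.58 and 6.39 in BP14A cells, against 3.56 and 2.90 in Parental +Dox cells (log2 difference 3.75, SE 0.34, adjusted p = 7.07e-08). Mael was at 7.52 and 6.14 in BP14A cells, against 3.28 and 3.29 in Parental +Dox cells (3.55, SE 0.34). Ddx4 was at 9.01 and 8.56, against 5.66 and 5.89 (3.01, SE 0.21), and Piwil2 at 8.14 and 7.03, against 4.99 and 4.80 (2.69, SE 0.33). In each of the 4 genes every BP14A array lay above every Parental +Dox array, and all 4 calls held under every alternative tried.

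BP14, P14A and P14 cells gave differences of the same 4 genes from the same 2 control arrays. In BP14 cells, which lack the Tfap2c transgene, Mael was higher by 3.44, Stk31 by 3.35, Ddx4 by 2.52 and Piwil2 by 1.96 (4 of 8 called higher, against 6.39% of all genes). In P14A cells, which lack the Blimp1 transgene, the values were 3.23, 3.19, 2.52 and 1.70 (4 of 8, against 5.65%). In P14 cells, with Prdm14 as the only factor transgene, they were 2.64, 3.06, 2.21 and 1.78 (4 of 8, against 6.34%). In each of these 12 differences the arrays did not overlap. Lack of overlap was also found in members that were not called. It held for 7 of 8 tested members in BP14 cells, 7 in P14A cells and 8 in P14 cells. Mael and Stk31 lay under the 4.05 level on the control arrays, so the size of their differences is uncertain. Prdm14 is a transcriptional regulator needed for the germ line and for naive pluripotency, Blimp1 (Prdm1) a repressor that starts the germ cell program, and Tfap2c a transcription factor that acts after it. Tdrkh went the other way in P14 cells: it was at 3.58 and 4.49, against 5.14 and 5.63 in Parental +Dox cells, and fell by 1.36 (SE 0.30, adjusted p = 0.00205; 1 of 8 called lower, against 6.6%), to a mean of 4.03, just under the 4.05 level. Without P14 array 1 that call was lost (-0.90, adjusted p = 0.0748). In P14A cells Tdrkh differed by -0.90 (adjusted p = 0.0355, under the fold limit), and it was called without P14A array 2 (-1.13) or without Parental +Dox array 1 (-1.15). The mean of the 7 streak markers was 2.85 to 3.48 in the 4 factor-induced groups, against 7.54 to 7.74 in Parental +Dox cells, with 5 or 6 of the 7 markers below the 4.05 level in every factor-induced array, and their part in these differences was not tested.

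**Figure D2:**
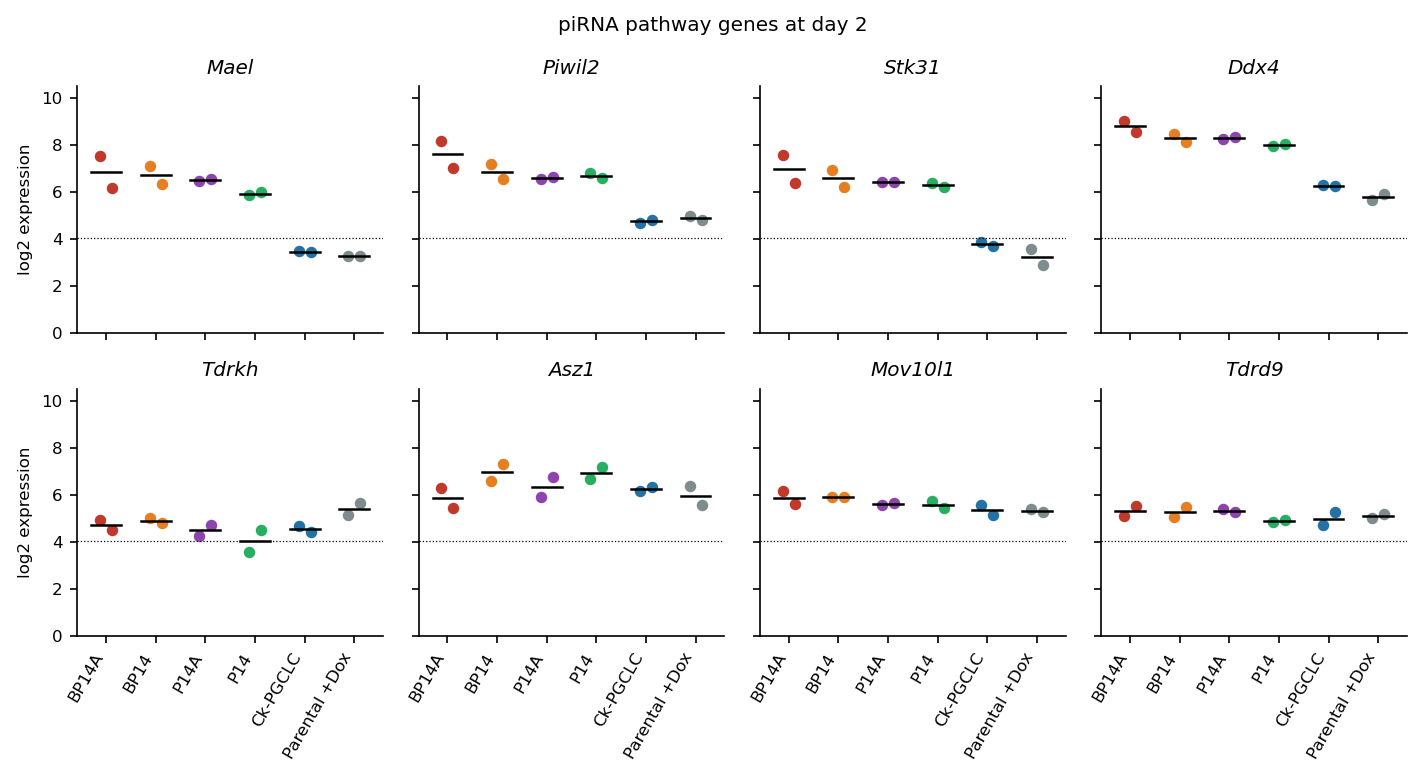
Log2 expression of the 8 tested members at day 2 (vertical axis) in BP14A, BP14, P14A and P14 cells, Ck-PGCLCs and Parental +Dox cells, with a point for each array, a bar for the mean of 2 arrays and a dotted line at the 4.05 level. The factor-induced groups lie above Ck-PGCLCs and Parental +Dox cells for Mael, Piwil2, Stk31 and Ddx4.

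No member differed past the test between the factor combinations compared. BP14A minus BP14 cells and BP14A minus P14A cells gave 0 of 8 members called in limma each, where 0.329% and 0.0129% of all genes were called. At an unadjusted limma p under 0.05 there were 3 (Piwil2, Asz1 and Ddx4) and 2 (Piwil2 and Ddx4). The share of all genes at that looser threshold was not counted, so these 2 counts have no background to be read against. BP14A minus BP14 was 0.11 for Mael (interval -0.60 to 0.82), 0.74 for Piwil2 (0.05 to 1.43) and 0.49 for Ddx4 (0.05 to 0.93). BP14A minus P14A was 0.32 for Mael (-0.39 to 1.03), 1.0 for Piwil2 (0.31 to 1.69) and 0.49 for Ddx4 (0.05 to 0.93). Asz1, at 6.30 and 5.45 in BP14A cells against 6.61 and 7.30 in BP14 cells, did not overlap and went the other way (-1.08, interval -1.93 to -0.22). The other probe set of Asz1 did not show this: its means were 4.59 in BP14A cells and 4.55 in BP14 cells. The intervals of Piwil2 and Asz1 reach past the fold limit. Over the 4 factor-induced groups the means spanned 0.90 for Mael, 1.0 for Piwil2, 0.69 for Stk31 and 0.80 for Ddx4.

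BP14A cells also carried more of the 4 RNAs than Ck-PGCLCs of the same day. At day 2 the log2 differences were 3.37 for Mael (SE 0.34), 3.21 for Stk31 (SE 0.34), 2.83 for Piwil2 (SE 0.33) and 2.52 for Ddx4 (SE 0.21), 4 of 8 called higher against 5.55% of all genes. At day 4 they were 2.93, 1.91, 1.96 and 1.35, again 4 of 8, against 3.39%. Mael was at 7.90 and 7.43 in BP14A cells of day 4, against 5.0 and 4.48 in Ck-PGCLCs of day 4. Arrays of the 2 routes did not overlap in any of the 4 genes on either day, and the 8 calls held under every alternative tried. Tdrkh was not called on either day (0.15, interval -0.47 to 0.77 at day 2, and -0.52, interval -1.14 to 0.10 at day 4). The streak marker mean was 3.10 to 3.35 in BP14A cells, against 9.11 to 9.33 in Ck-PGCLCs, at day 2, and 3.50 to 4.26, against 4.62 to 4.77, at day 4; its part was not tested.

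**Figure D3:**
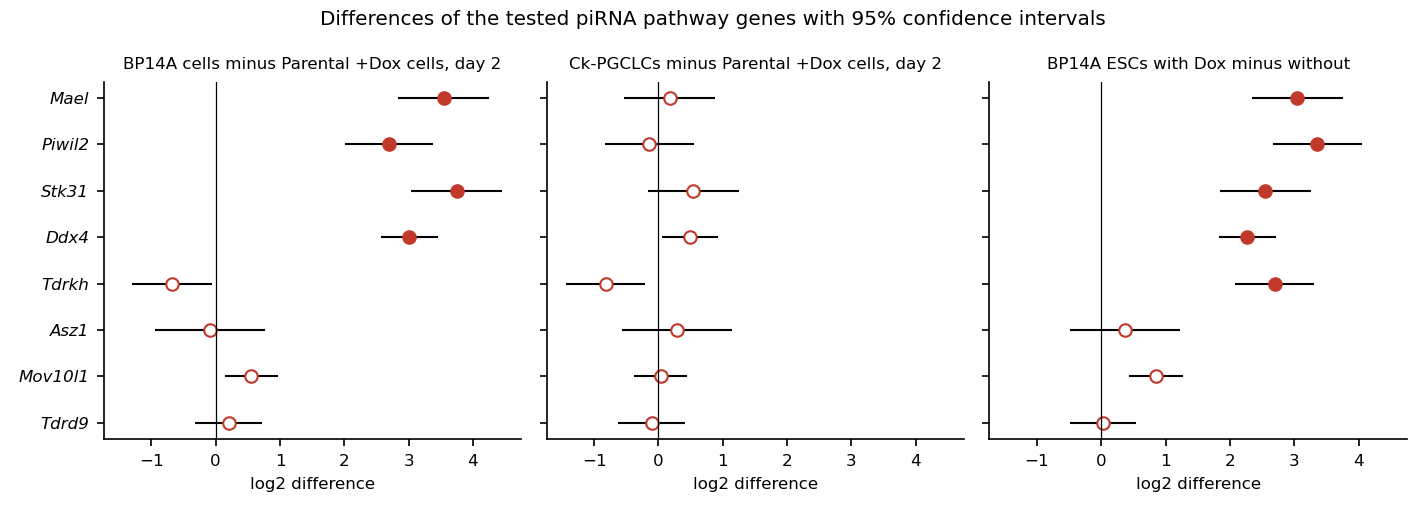
Log2 differences (horizontal axis) of the 8 tested members (vertical axis) with 95% confidence intervals from limma, for BP14A cells minus Parental +Dox cells, Ck-PGCLCs minus Parental +Dox cells, both at day 2, and BP14A ESCs with minus without doxycycline; filled points were called. Mael, Piwil2, Stk31 and Ddx4 are filled in the outer panels, Tdrkh is filled in the ESC panel, and the panel of Ck-PGCLCs has 0 filled points.

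In ESCs, 2 days of the 3 factors gave higher levels of 5 of 8 members in the stella-ECFP-sorted cells, against 5.51% of all genes called higher, without a passage through EpiLCs. Piwil2 was at 8.75 and 8.83 in BP14A ESCs with doxycycline, against 5.44 and 5.43 in BP14A ESCs (log2 difference 3.36, SE 0.33, adjusted p = 6.49e-07). Mael was at 8.62 and 8.93, against 5.68 and 5.78 (3.05, SE 0.34), and Tdrkh at 4.37 and 4.94, against 1.93 and 1.99 (2.69, SE 0.30). Stk31 was at 8.01 and 8.24, against 5.76 and 5.39 (2.55, SE 0.34), and Ddx4 at 8.94 and 8.99, against 6.98 and 6.41 (2.27, SE 0.21). The arrays did not overlap in any of the 5, and the calls held under every alternative tried. Mov10l1 was higher by 0.85 (SE 0.20, adjusted p = 0.00486), under the fold limit, and was called without array 2 of the sorted cells (1.0, adjusted p = 0.011). Asz1 (0.37, interval -0.48 to 1.23) and Tdrd9 (0.03, interval -0.49 to 0.54) were not called. The sorted cells were selected by a reporter and the ESCs were not, so doxycycline and sort cannot be told apart. The germ cell marker mean was 8.84 to 8.88 in the sorted cells, against 8.54 to 8.65 in BP14A ESCs. Of the 7 markers 3 were called higher, against 5.51% of all genes, and 1 lower, where 605 of all 15497 genes were. The median difference of the markers was -0.05, with a range of -2.73 to 2.55. These markers include the transgene factors themselves and stella, the gene of the sorted reporter.

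In the earlier arrays, the same genes were set against cells of the embryo. In EpiLCs of 48 h, 4 of 8 members were higher than in ESCs, against 7.26% of all genes: Mael (3.63, SE 0.34), Tdrkh (2.82, SE 0.30), Ddx4 (1.88, SE 0.21) and Stk31 (1.32, SE 0.34). Stk31 was not called without ESC array 1 (0.93, adjusted p = 0.11), and Piwil2, under the fold limit at 0.97, was called without EpiLC 48 h array 1 (1.43). In epiblast of E5.5 against ESCs the same 4 were higher, by 2.71, 1.71, 1.96 and 1.62, against 7.58% of all genes. Mael was at 8.12 and 8.59 in epiblast, against 5.59 and 5.71 in ESCs, with no overlap. In that comparison 3 of 6 endoderm markers (array means 5.44 to 6.36 in epiblast, against 4.52 to 4.74 in ESCs) and 3 of 7 streak and mesoderm markers (4.84 to 5.26, against 3.37 to 3.59) were also called higher, and their part was not tested. EpiLCs of 48 h minus epiblast of E5.5 gave 1 of 8 called higher, against 3.29% of all genes: Tdrkh, at 6.21 and 6.05 in EpiLCs against 4.92 and 5.11 in epiblast (1.11, SE 0.30, adjusted p = 0.0218). That call was lost without any 1 of the 4 arrays (adjusted p = 0.0658 to 0.112).

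PGCs of E9.5 had less Mael than epiblast of E5.5 and more Tdrkh and Piwil2. Mael was at 6.56 and 6.21 in PGCs, against 8.12 and 8.59 in epiblast (log2 difference -1.97, SE 0.34, adjusted p = 0.000161; 1 of 8 called lower, against 6.9% of all genes). Tdrkh was at 7.53 and 7.81 in PGCs, against 4.92 and 5.11 in epiblast (2.65, SE 0.30), and Piwil2 at 7.69 and 8.02, against 6.42 and 6.63 (1.34, SE 0.33), so 2 of 8 were called higher, against 8.9%. Ddx4 was not called (0.05, interval -0.39 to 0.49), nor was Stk31 (0.67, interval -0.04 to 1.37). Against ESCs, PGCs had 4 of 8 members higher, against 9.81% of all genes, with Tdrkh at 4.36 (SE 0.30), Stk31 at 2.29 (SE 0.34), Ddx4 at 2.01 (SE 0.21) and Piwil2 at 1.67 (SE 0.33). Asz1 missed the call at 1.03 (adjusted p = 0.0624) and passed it without ESC array 1 (1.49, adjusted p = 0.028) and without either epiblast array (adjusted p = 0.0476 and 0.0477). On the other probe set of Asz1 the mean was 4.91 in PGCs and 5.15 in ESCs, so the direction depended on the probe set. The PGC arrays held the blood and endothelium markers given above, and the part of these markers was not tested.

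Ck-PGCLCs of day 6 had more Piwil2, Tdrkh, Stk31 and Ddx4 RNA than EpiLCs of 48 h. Against EpiLCs of 48 h, 5 of 8 members rose, against 9.26% of all genes, and 1 fell, against 9.38%. Piwil2 was at 8.85 and 9.64 in Ck-PGCLCs of day 6, against 6.70 and 7.61 in EpiLCs of 48 h (log2 difference 2.08, SE 0.33, adjusted p = 5.94e-05). Tdrkh was at 7.72 and 8.44, against 6.21 and 6.05 (1.95, SE 0.30), Stk31 at 8.30 and 8.48, against 6.74 and 6.93 (1.55, SE 0.34), and Ddx4 at 9.77 and 9.89, against 8.85 and 8.60 (1.10, SE 0.21). Asz1 rose by 1.26 (SE 0.41, adjusted p = 0.0232) and Mael fell by 1.08 (SE 0.34, adjusted p = 0.019). Both calls were fragile: Asz1 was not called without any 1 of the 4 arrays (adjusted p = 0.055 to 0.119), and Mael not without either EpiLC array (adjusted p = 0.0813 and 0.0616) or without day 6 array 1 (-0.74, adjusted p = 0.185). Ddx4 fell under the fold limit without EpiLC array 2 (0.98).

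Set against PGCs of E9.5, Ck-PGCLCs of day 6 had more Mael and Piwil2, 2 of 8 called higher against 3.9% of all genes. Mael was at 7.87 and 8.54 in Ck-PGCLCs, against 6.56 and 6.21 in PGCs (1.82, SE 0.34, adjusted p = 0.000901). Piwil2 differed by 1.38 (SE 0.33, adjusted p = 0.00735) and was not called without PGC array 1 (1.22, adjusted p = 0.08) or without Ck-PGCLC array 2 (0.99, adjusted p = 0.14). Ddx4, at 0.98 (SE 0.21, adjusted p = 0.00347), lay just under the fold limit, and passed it without Ck-PGCLC array 1 (1.04) or without PGC array 1 (1.12). Mael was not called in a fit of these groups alone (adjusted p = 0.0881). The mean of the blood and endothelium markers was 5.81 to 6.37 in Ck-PGCLCs, against 8.88 to 9.30 in PGCs, and that of 7 fibroblast markers 4.71 to 4.99, against 5.71 to 6.56, with 3 of 7 called lower; their part was not tested. In Stk31 (0.59, interval -0.12 to 1.29) and Tdrkh (0.41, interval -0.21 to 1.03) no call was made.

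**Figure D4:**
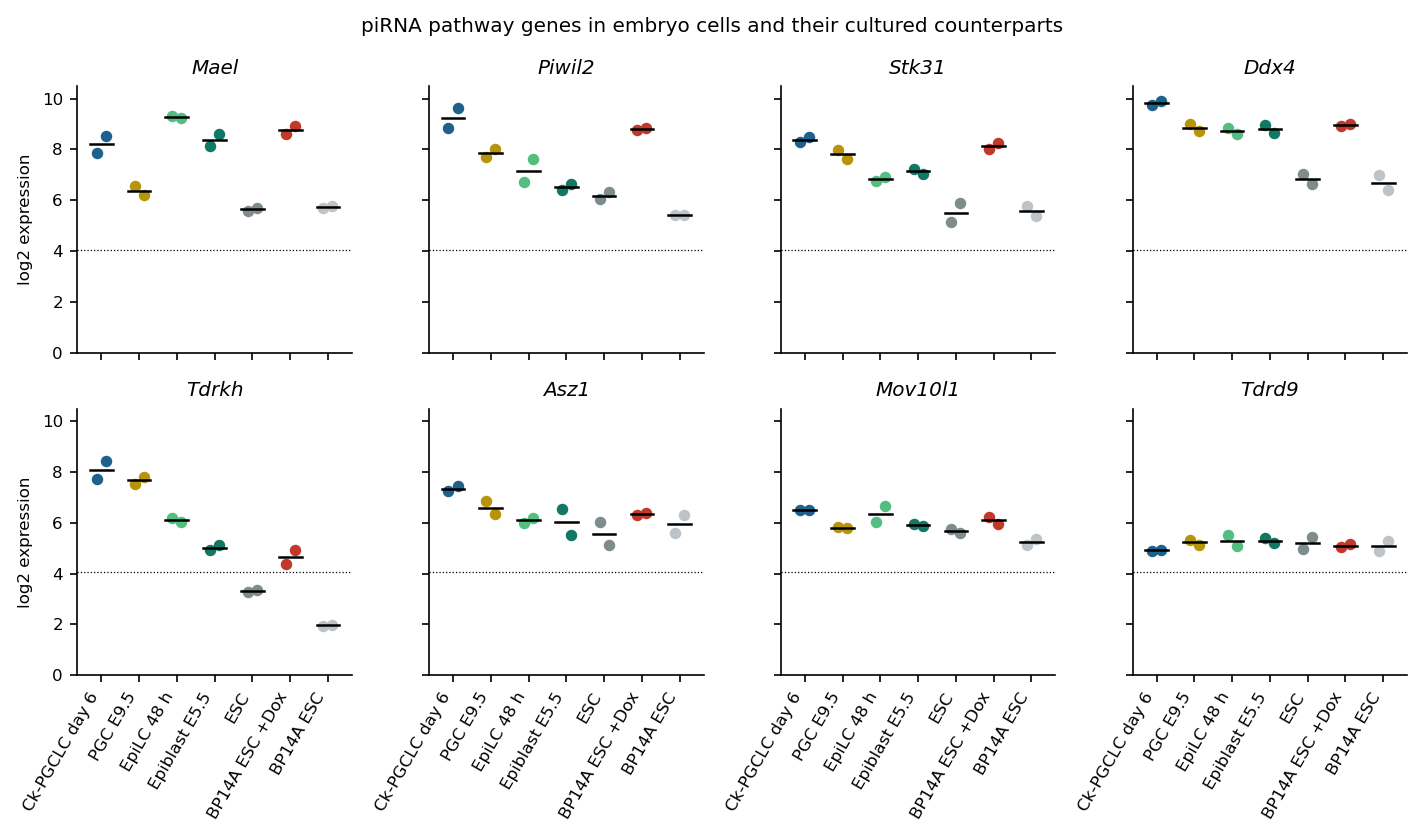
Log2 expression of the 8 tested members (vertical axis) in Ck-PGCLCs of day 6, PGCs of E9.5, EpiLCs of 48 h, epiblast of E5.5 and ESCs of the earlier arrays, and in BP14A ESCs with and without doxycycline, with a point for each array, a bar for the mean of 2 arrays and a dotted line at the 4.05 level. Mael is lower in PGCs than in EpiLCs, epiblast and Ck-PGCLCs of day 6, and Tdrkh is highest in Ck-PGCLCs of day 6 and PGCs.

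The other 4 members varied little. Tdrd9 means lay between 4.89 in P14 cells and 5.31 in P14A cells, a span of 0.43, and it was called in 0 of 25 comparisons. Mov10l1 means spanned 1.28, and it too was called in 0 of 25; its differences passed the adjusted p in 9 of them, all under 2-fold. Asz1 means spanned 1.78, with 1 call (Ck-PGCLCs of day 6 over EpiLCs of 48 h). Its 2 probe sets correlated at r = 0.13 over the 16 group means, so its pattern depends on the probe set: with the mean of both, that difference was 0.75 and no call was made. The 2 probe sets of Stk31 correlated at r = 0.99. Tdrd1 was near the bottom of the scale, with group means from 0 in 3 groups to 1.98 in EpiLCs of 36 h, under the 4.05 level on every array.

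Stk31, Ddx4 and Piwil2 ran together across the groups, and Mael less closely with them. Over the 16 group means, Stk31 correlated with Ddx4 at r = 0.96 and with Piwil2 at r = 0.94, and Piwil2 with Ddx4 at r = 0.92. Mael correlated at r = 0.78 with Ddx4, 0.76 with Stk31 and 0.70 with Piwil2, and Mov10l1, whose means spanned far less, at r = 0.85 with Piwil2 and 0.85 with Ddx4. These are descriptions over 16 points that share the arrays, the normalization and the starting cells. The points also mix new and earlier arrays, so a difference between the series can enter the correlations. Of the 28 pairs of tested members, 25 had r above 0, with a median of 0.46 and a range of -0.41 to 0.96. By the same measure, the genes most like each member among the 10236 others whose means spanned at least 1 log2 unit were Sycp3 (0.92), Syce3 (0.92) and Kmt5b (0.92) for Mael, and Tln2 (0.95), Otud3 (0.95) and Stk31 (0.94) for Piwil2. Those most like Stk31 were Ddx4, Piwil2 and Tomm34 (0.92), and those most like Ddx4 were Stk31, Piwil2 and Rbm44 (0.91). For Tdrkh they were Klhl36 (0.93), Adcy7 (0.93) and Gas2 (0.91).

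Other genes of the pathway were followed in a list of 22, of which 18 were measured and 17 tested. Henmt1 was measured but not tested. Tdrd6, Fkbp6, Spocd1 and Nanos2 had no expression value in the data used here. In the first 2 days of the cytokine route 6 of 17 fell, against 6.06% of all genes, and 2 rose, against 8.42%. Gpat2, a mitochondrial protein of piRNA biogenesis, fell by 4.66 (SE 0.37), and Tdrd12, a Tudor domain helicase-like protein, fell by 4.28 (SE 0.35), while the Tudor domain genes Tdrd7 (2.87, SE 0.42) and Tdrd5 (1.51, SE 0.39) rose. In Parental +Dox cells against EpiLCs, 1 of 17 was higher, again Tdrd7 (3.22, SE 0.42), where 1121 of all 15497 genes were called higher. On the same arrays 8 of 17 were lower, against 5.63% of all genes. They were led by Tdrd12 (-6.41, SE 0.35) and Morc1 (-6.08, SE 0.29), an ATPase that acts in transposon repression in male germ cells. The Parental +Dox means of both (3.67 for Tdrd12 and 2.87 for Morc1), like that of Gpat2 in Ck-PGCLCs of day 2 (3.14) and of Tdrd7 in EpiLCs (3.18), lay under 4.05, so the size of these differences is uncertain. In BP14A cells of day 2 against Parental +Dox cells, 7 of 17 rose, against 6.63% of all genes, led by Morc1 (6.73, SE 0.29) and Tdrd12 (4.82, SE 0.35), and 1 fell, against 7.25%: Tdrd7, by 2.31 (SE 0.42). Ck-PGCLCs of day 2 against Parental +Dox cells gave 2 of 17 higher, Morc1 (3.62, SE 0.29) and Tdrd12 (2.13, SE 0.35), against 2.32% of all genes. In sorted BP14A ESCs with doxycycline, 5 of 17 were higher than in BP14A ESCs, led by Tdrd7 (1.91, SE 0.42) and Tdrd5 (1.60, SE 0.39), against 5.51% of all genes. PGCs of E9.5 had more Morc1 (5.39, SE 0.29) and Tdrd5 (3.64, SE 0.39) than epiblast of E5.5 and less Gtsf1 (-2.00, SE 0.35), a partner of PIWI proteins, with 2 of 17 higher, against 8.9% of all genes, and 1 lower, against 6.9%.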

How the data were processed

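Gene expression was measured on 32 arrays in 16 groups of 2, from RNA of small cell numbers amplified by PCR, per the labels' design text. The authors deposited log2 expression values for 45101 probe sets, from 0 to 14.59; the summarisation and normalization software is not given in the sources used here, and array medians of 4.62 to 4.78 differ little. Of the probe sets, 34945 had exactly 1 symbol in the platform annotation, 932 several, 9160 were not listed and 64 were controls. The log2 values were quantile-normalized again, reduced to the probe set with the highest mean per gene, and filtered at 4.05.

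One limma model (version 3.58.1, R 4.3.3) with 16 group means was fitted to all 15497 genes, with 16 residual degrees of freedom shared by all groups. Calls needed a Benjamini-Hochberg adjusted p under 0.05 over these genes and 2-fold. All adjusted p-values in the text are limma's. Precision is limited by how many arrays there are. The procedure was tested on simulated data. Promoters were read with Python 3.11.15. The members and gene lists were chosen with earlier results of these data known. Other genes of the pathway were named where called, largest differences first. Alternatives changed the normalization, filter, variance model, thresholds, arrays, probe sets and replicate block; in an alternative chosen after the data were seen, the lowest array of each group with a Gapdh 5′ minus 3′ value under -2.5 was left out (5 arrays), which keeps BP14A day 4 array 2 (-2.99).

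The replicate numbers were not taken as pairs, since there are only 2 and no label states a shared batch: over 25 pairs of groups, deviations of same-numbered arrays correlated at -0.09 to 0.46 (median 0.16).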

Additional observations from a re-analysis of the deposited data

Results flagged for a closer look

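Groups of 2 arrays are too small to look for an array that stands apart, so the results here are differences between groups in size or in direction. A difference in direction was listed only where all arrays of both contrasts lay clear of their references, on opposite sides. That lack of overlap is therefore no separate result. Ddx4 changed less from day 2 to day 4 in BP14A cells than in Ck-PGCLCs, by -1.17 (SE 0.30, adjusted p = 0.0108 in limma).

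Tdrkh lay on both sides of its level in EpiLCs of 36 h. In Ck-PGCLCs the log2 difference was 0.98 at day 4 and -1.07 at day 2, and in BP14A cells 0.45 at day 4 and -0.92 at day 2. By the rule of choice, all arrays of the later day lay above EpiLCs and all of the earlier day below. The direct tests of day 4 minus day 2 gave 2.05 in Ck-PGCLCs and 1.38 in BP14A cells. The BP14A call was not stable: the value was 1.15 without day 2 array 2 and 1.07 without day 4 array 1.

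In the cytokine route, day 6 against EpiLCs of 48 h and day 2 against EpiLCs of 36 h ran in opposite directions for Piwil2 (2.08 and -2.23), Stk31 (1.55 and -2.70), Ddx4 (1.10 and -1.80) and Tdrkh (1.95 and -1.07). These come from earlier and new arrays, and the difference between them was not tested.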

How the results depend on the processing

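Of 208 tests of a member in a comparison, 81 were called. Of these, 65 held under all 44 settings tried, the 16 others were lost under at least 1, and 0 reversed. Alternatives in normalization, filter, model, threshold, probe sets or sets of arrays ended 26 calls and added 27; leaving out a single array ended 27 and added 18.

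The counts of members that moved by over 1.5 times were as follows, with the cause not tested. Ck-PGCLCs of day 4 against EpiLCs had 2 called, against 1, with the deposited values, with median centring and with no fold limit (each adding Tdrkh). BP14A cells of day 2 against EpiLCs had 3 with no fold limit and 0 with only the groups compared, against 1. BP14A day 4 against day 2 had 0 at an adjusted p under 0.01, with only the groups compared and with the low Gapdh arrays left out, against 2. EpiLCs of 48 h against epiblast had 0 at an adjusted p under 0.01, with only the groups compared and with only the earlier arrays, against 1. Ck-PGCLCs of day 6 against PGCs had 4 with no fold limit, 1 with only the earlier arrays and 0 with only the groups compared, against 2. The route by time test had 2 with the mean of probe sets and with the replicate block and 0 at an adjusted p under 0.01, against 1. The median of all member levels was 5.64 with the other probe sets, against 5.99.

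Leaving out 1 array gave 1 to 3 calls for BP14A day 2 against EpiLCs, 0 to 4 for BP14A day 4 against day 2, 0 to 1 for EpiLCs of 48 h against epiblast, 3 to 6 for Ck-PGCLCs of day 6 against EpiLCs of 48 h, 1 to 3 against PGCs, and 0 to 3 for the route by time test.

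With the replicate block, Piwil2 was called in BP14A day 4 against day 2 (adjusted p = 0.0183), Asz1 in PGCs against ESCs (0.046) and Stk31 in the route by time test (0.0371); it changed no other member's call. Over all genes it moved the count of BP14A against BP14 cells to 82, against 51.

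The share of calls that were higher was 58.2% for Ck-PGCLCs of day 2 against EpiLCs (69.5% with deposited values), 57.9% for BP14A day 4 against EpiLCs (68.7% with median centring) and 65.3% for BP14A day 4 against day 2 (77.3% with deposited values). Depth is a matter of signal over the array's lower range: Mael and Stk31 in Ck-PGCLCs of day 2 and Parental +Dox cells, Tdrkh in ESCs and P14 cells and Tdrd1 everywhere lay under 4.05.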

Other observations

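Other germline genes with CpG-rich promoters were followed in a list of 14, of which 11 were tested. In Ck-PGCLCs of day 2 against EpiLCs of 36 h 9 of 11 fell, against 6.06% of all genes called lower, and in Parental +Dox cells 9 of 11 were lower than on the same EpiLC arrays, against 5.63%. Dazl, an RNA-binding protein of germ cells, had a mean of 3.01 in Ck-PGCLCs and 0.62 in Parental +Dox cells, against 7.37 in EpiLCs. Hormad1, a protein of meiotic chromosomes, had a mean of 3.57 in Ck-PGCLCs and 1.95 in Parental +Dox cells, against 8.18 in EpiLCs. The means of both genes in Ck-PGCLCs and Parental +Dox cells lay under 4.05, so the size of their differences is uncertain. In BP14A cells of day 2 against Parental +Dox cells 8 of 11 were called higher, against 6.63% of all genes, among them Dazl (mean 7.77 in BP14A cells) and Hormad1 (6.82). CACGTG was in a promoter window of 7 of 13 of these genes, against 8.09% of all genes with a window and 11.57% of those in the CpG range of the members. Among the other piRNA pathway genes it was in 4 of 15.

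Among 15 known or proposed repressors of germline genes, 3 fell in Ck-PGCLCs of day 2 against EpiLCs, against 6.06% of all genes. Dnmt3l, a cofactor of the de novo DNA methyltransferases, fell by 6.48 (SE 0.26), and the methyltransferase Dnmt3a fell by 3.66 (SE 0.27). In Parental +Dox cells 3 of 15 were also lower than in these EpiLCs, against 5.63% of all genes, led by Dnmt3l (-6.30, SE 0.26) and Dnmt3a (-2.74, SE 0.27). BP14A cells of day 2, which differ from these EpiLCs in clone too, had 3 of 15 lower, against 5.36%. They were led by Dnmt3b (-3.88, SE 0.61) and Dnmt3a (-3.60, SE 0.27). In BP14A cells of day 2 against Parental +Dox cells, Dnmt3l (3.48, SE 0.26) and Max (1.08, SE 0.23), a partner of MYC and MGA, were higher (2 of 15, against 6.63% of all genes), and Dnmt3b (-3.53, SE 0.61) was lower (1 of 15, against 7.25%). In sorted BP14A ESCs with doxycycline, Dnmt3a (4.14, SE 0.27) and Dnmt3l (3.53, SE 0.26) were higher than in BP14A ESCs (2 of 15, against 5.51%).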
